A study of Mus musculus with 24 samples.

Results

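Quadriceps muscle of mdx mice was compared with quadriceps of BL10 mice at 5 days of age. The 6 arrays titled as quadriceps at 5 days were used, 3 of BL10 and 3 of mdx, out of 24 arrays in the series. BL10 is the control strain. The mdx strain carries a nonsense mutation in Dmd, the gene of dystrophin, in every cell of the body, so a difference in whole muscle need not arise in the muscle fibres. The labels name genotype, tissue and age for each array, state no treatment, and call the 3 arrays of a group biological replicates without saying how many animals gave each RNA or of which sex they were. The other 18 arrays are labelled as the same strains at 2, 3 and 6 weeks and served mainly to estimate the spread. By the level of Dmd, 5 of these 18 read as the strain opposite to their label. Total RNA was hybridised to Affymetrix mouse arrays, on which a gene is measured by one or more probe sets. All levels below are log2(intensity + 16) after quantile normalization, so 4 is the lowest level possible, and differences are mdx minus BL10 with the standard error of a limma fit (n = 3 arrays per strain). The added 16 understates the change of dim genes.

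Dystrophin links the actin skeleton of the muscle fibre, through a complex of membrane proteins, to the basement membrane. Muscle of mdx mice looks largely normal in the first days of life and begins to degenerate around weaning, so arrays of this age address whether the strains differ before injury. At this age the fibres are still exchanging embryonic and neonatal myosin for adult fast myosin, vessels are still growing into the muscle, and muscle precursors are still dividing. A whole-muscle array reads the sum of all these cells, and fewer cells of a type and less RNA per cell cannot be told apart.

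Lower in mdx were single genes of several kinds, among them Myh4 and Aqp4 of fast fibres, Col15a1 of the basement membrane, and Rgs5 and Cdh5 of vessels. Higher in mdx were Lcn2, Mt1, Mt2, Hsd11b1 and Hdc. Among the genes named here, Cdh5, Mt1 and Mt2 lost their calls when mdx replicate 2 was left out. In the lists, 6 of 18 fast fibre genes, 3 of 24 endothelial genes and 3 of 19 genes of fibro-adipogenic progenitors were called lower. In the fit to 24 arrays, limma called none of 19 dystrophin complex genes and 31 extracellular matrix genes. Of these, 5 and 7 had an unadjusted p under 0.05. Dmd and Col1a1 among them were called with the 6 arrays alone. Of 15000 genes tested, 216 (1.44%) were called at an adjusted p under 0.05, with 138 lower in mdx (0.920%) and 78 higher (0.520%). The share called higher was 36.1% with quantile normalization and 46.4% with median centring (181 genes called). For 215 of the 216 genes the 3 mdx arrays lay entirely beyond the 3 BL10 arrays, the exception being Sema4d. The 216 were called on the difference between these same arrays, so this separation was favoured in advance and adds no support to the calls. Over all genes the arrays separated in this way for 23.2%, 11.6% with mdx above and 11.6% with mdx below. The unadjusted p lay under 0.05 for 2141 genes (14.3%), a share against which the counts of uncalled lists below may be read.

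**Figure D1:**
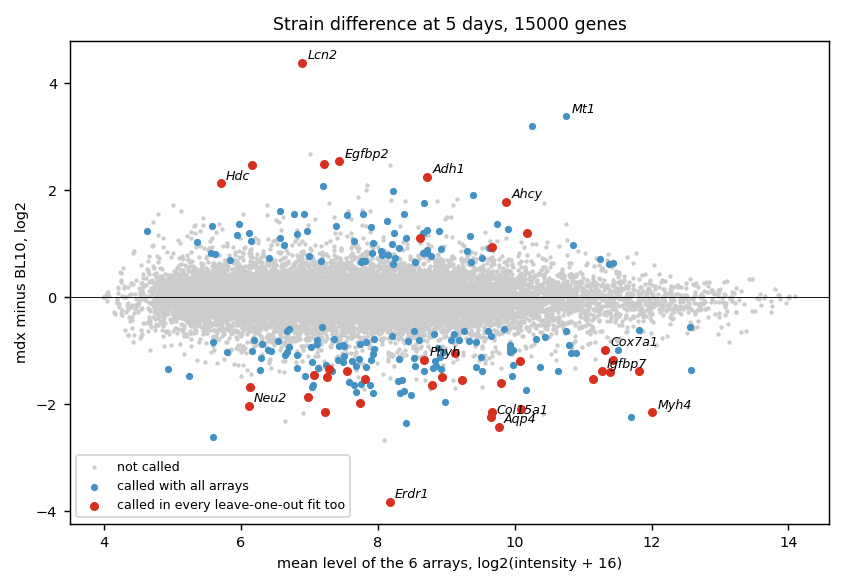
Difference between strains (mdx minus BL10, log2, vertical axis) against the mean level of the 6 arrays (log2(intensity + 16), horizontal axis) for 15000 genes. Grey points were not called, blue points were called with all arrays, and the 39 red points were called in every leave-one-out fit too. Lcn2 at 4.39 and Erdr1 at -3.82 lie farthest from 0 among the called genes.

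The mdx arrays varied more than the BL10 arrays. The median standard deviation of a gene was 0.268 over the mdx arrays and 0.125 over the BL10 arrays, and correlations over all probe sets were 0.9556 to 0.9585 among mdx and 0.9813 to 0.9886 among BL10. For 157 of the 216 called genes, mdx replicate 1 lay nearest to the BL10 mean, while replicate 2 was farthest for 119 genes and replicate 3 for 83. Sex differed between arrays: in BL10 replicate 1 the female transcript Xist read 11.65 and Eif2s3y, Kdm5d and Uty of the Y chromosome read at most 4.07, and the other 5 arrays read as male. The 3' minus 5' difference of the Gapdh control probe sets, a measure of RNA integrity, ran from -0.19 to -0.10 over the 6 arrays, and the groups overlapped. For the actin controls it was -0.229, -0.088 and -0.115 in BL10 and -0.26, -0.245 and -0.154 in mdx. There mdx replicates 1 and 2 lay below every BL10 array.

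Because of this spread, the fit was repeated without each of the 6 arrays. Without BL10 replicates 1, 2 and 3, the counts of called genes were 46, 60 and 70, of which 45, 59 and 70 were among the 216. Without mdx replicate 1 there were 726 called genes, which included 208 of the 216. Without mdx replicate 2 there were 73 (62 of the 216), and without mdx replicate 3 there were 207 (127 of the 216). A fit without an array also has fewer samples, and the median standard error then was 0.246 to 0.257 in place of 0.225. In all 6 of these fits 39 genes (0.260% of those tested) were called, 29 lower in mdx (0.193%) and 10 higher (0.0667%). The remaining 177 called genes lost their call in at least 1 of the 6 fits, and 3 of them in all 6.

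**Figure D2:**
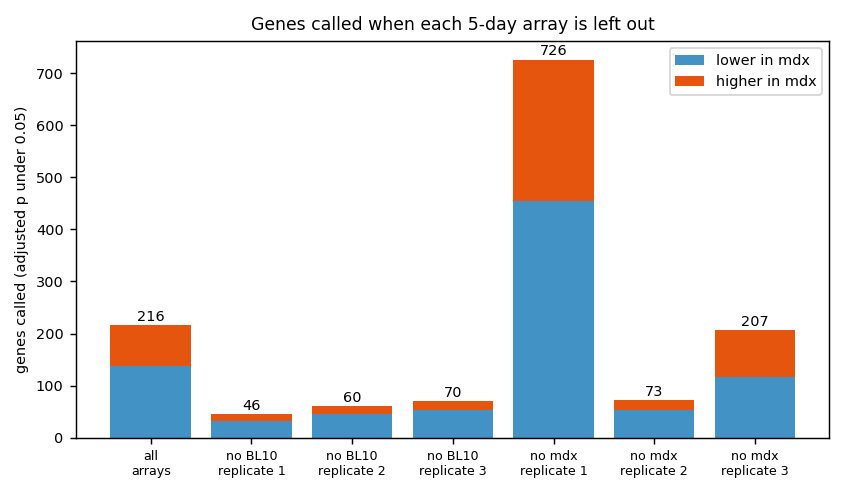
Number of genes called at an adjusted p under 0.05 (vertical axis) with all arrays and without each array of 5 days in turn. Blue bars count genes lower and orange bars genes higher in mdx, and the total stands above each bar. The total was lowest without BL10 replicate 1 (46) and highest without mdx replicate 1 (726).

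The calls also rest on the spread that the fit shares over all 24 arrays. With the 6 arrays of 5 days fitted alone, on 4 residual degrees of freedom, 12 genes were called. Of the 39 genes, 5 were called in that fit: Erdr1, Col15a1, Neu2, Igfbp7 and P2ry2. All 39 were called with the values as deposited and with median centring.

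**Figure D3:**
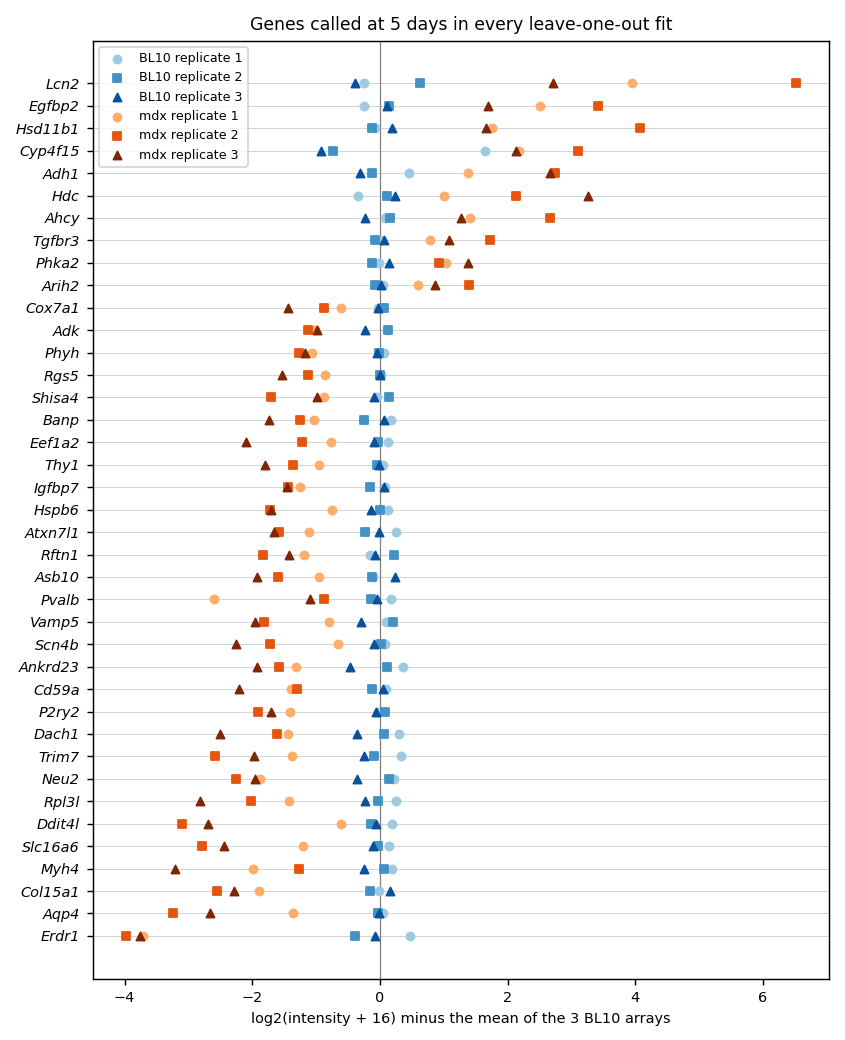
Level of each gene in each array minus the mean of the 3 BL10 arrays (log2, horizontal axis) for the 39 genes called with all arrays and in every leave-one-out fit, ordered by difference. Blue symbols are BL10 and orange to brown symbols mdx, with 1 shape per replicate number. In each of the 39 rows the mdx symbols lie on 1 side of all BL10 symbols, and mdx replicate 1 is often the nearest to them, as for Ddit4l and Scn4b.

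The mutated gene was examined before the others. Dmd, by its probe set of highest level (1448665_at), gave 9.87, 10.02 and 10.02 in BL10 and 8.29, 8.06 and 8.48 in mdx. The groups did not overlap, and every array went with its label. The difference was -1.69 ± 0.47. Its adjusted p was 0.0749 in the limma fit to 24 arrays and 0.0205 in that to the 6 arrays. Without the 2 arrays of other ages that go against both their label and their group, the adjusted p was 0.00304. Those 2 arrays were singled out by Dmd itself. A second probe set, 1417307_at, read 9.36, 9.43 and 9.46 against 7.84, 7.31 and 8.04. The third, 1443315_at, did not follow, with a difference of 0.45.

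In the fit to 24 arrays, limma called none of the 19 tested genes of the dystrophin complex list (24 listed), Dmd among them. Of the 19, 5 had an unadjusted p under 0.05. The list's median difference was -0.05. Utrn, whose product utrophin can take the place of dystrophin, read 9.75, 9.80 and 9.81 in BL10 and 10.11, 10.18 and 10.60 in mdx. All mdx arrays lay above all BL10 arrays, but the difference of 0.51 ± 0.22 was not called (adjusted p 0.282). Dimmer Utrn probe sets differed by 0.49 (1427569_a_at) and -0.02 (1426892_at), both without a call. The nitric oxide synthase gene Nos1 and caveolin-3 (Cav3), whose proteins sit at the same membrane, differed by 0.87 and 0.70 without a call. Other Nos1 probe sets differed by 0.10 (1422949_at), 0.86 (1438483_at) and 0.33 (1458626_at), also without a call. The laminin gene Lama4 and sarcospan (Sspn) differed by -0.66 and -0.45, likewise without a call.

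Aqp4, the water channel of fast fibres whose protein is anchored at the membrane through the dystrophin complex, read 11.03, 10.94 and 10.96 in BL10 and 9.61, 7.73 and 8.32 in mdx. The 3 BL10 arrays were nearly equal, and mdx replicate 2 lay lowest. The fall was 2.42 ± 0.32 on the log2 scale (adjusted p 0.000474), which is 5.36-fold, and without single arrays the difference ran from -2.95 to -2.01. Scn4b, a beta subunit of voltage-gated sodium channels, read 10.07, 10.01 and 9.91 against 9.34, 8.27 and 7.74, and fell by 1.54 ± 0.24 (adjusted p 0.00229). Of 21 tested genes for excitation and calcium handling, 2 were called lower, Aqp4 and the calcium channel subunit Cacnb1 (-0.89). The potassium channel Kcnc1 was the 1 called higher (1.20), by probe set 1456944_at. Its other probe sets differed by 0.45, 0.01 and -0.17 without a call. The list's median was -0.45, against -0.005 over all genes. Under the lowest BL10 array lay 17 of the 21 genes in mdx replicate 2, 17 in replicate 3 and 10 in replicate 1, where the shares of all genes were 40.5%, 39.5% and 27.7%. The calcium release channel gene Ryr1 read 12.65, 12.41 and 12.53 against 12.40, 11.41 and 11.49 and was not called (adjusted p 0.0646).

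Adult fast fibre genes were lower in part. Of 18 tested genes 6 were called, all lower: the fast myosins Myh4, Myh2 and Myh1, parvalbumin (Pvalb), the Z-disc protein gene Myoz3 and Rpl3l, the muscle form of a ribosomal protein. Myh4, the 2B myosin, read 13.28, 13.14 and 12.83 in BL10 and 11.10, 11.82 and 9.88 in mdx. Replicate 3 lay lowest for the 3 myosins, whereas Pvalb, a calcium buffer, was lowest in replicate 1 (12.09, 11.78 and 11.87 against 9.31, 11.04 and 10.81). Rpl3l read 11.39, 11.11 and 10.90 against 9.71, 9.11 and 8.32 and fell by 2.09 ± 0.24 (adjusted p 8.74e-05). Myh4, Pvalb and Rpl3l were called in all 6 leave-one-out fits, Myh2 in 5, Myoz3 in 4 and Myh1 in 3. The probe sets of the 3 myosins may share signal, because the genes are closely related.

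Several bright genes of fast fibres were not called. Mylpf and Tnni2, which encode a light chain and the inhibitory troponin of fast fibres, differed by 0.02 and -0.004, and Tnnt3 and Atp2a1 by -0.16 and -0.25. Their levels of 12.97 to 14.11 lie near the top of the scale, as do the BL10 levels of the called Myh4 (12.83 to 13.28). Whether brightness hides differences was not tested. Slow fibre genes had no calls by limma among 12, with 2 at an unadjusted p under 0.05. Of 14 tested developmental muscle genes none was called and 3 had an unadjusted p under 0.05, with a median of 0.40. Cardiac troponin T (Tnnt2), which immature muscle also makes, read 10.003, 9.88 and 10.29 in BL10 against 11.02, 11.40 and 11.88 in mdx and was not called (adjusted p 0.212). That median was 0.16 without mdx replicate 3.

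The start regions of the neighbouring genes Myh1 and Myh4 are shown because both genes fell and both regions hold a match to the motif below. The region of Myh2, which also fell, was searched, held no match and is not shown. Each run holds the 250 bases before the start that RefSeq gives, from build GRCm38.p6, plus strand, and capitals mark a match to the MEF2 motif, the site of a muscle transcription factor family.
Myh1, chr11:67199852-67200101: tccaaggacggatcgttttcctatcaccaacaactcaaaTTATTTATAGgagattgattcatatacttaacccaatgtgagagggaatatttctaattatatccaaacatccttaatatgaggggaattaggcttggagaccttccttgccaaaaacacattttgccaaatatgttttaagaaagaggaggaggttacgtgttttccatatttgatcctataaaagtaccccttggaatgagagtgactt
Myh4, chr11:67237562-67237811: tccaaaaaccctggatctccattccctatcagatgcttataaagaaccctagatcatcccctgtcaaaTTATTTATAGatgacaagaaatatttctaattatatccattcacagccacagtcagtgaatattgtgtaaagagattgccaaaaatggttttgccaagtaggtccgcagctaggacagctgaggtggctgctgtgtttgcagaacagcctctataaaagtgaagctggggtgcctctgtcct
Both windows held the same 10 letters, TTATTTATAG, beginning 211 bases before the start of Myh1 and 182 bases before that of Myh4. The MEF2 motif occurred on either strand in 2.92% of 32851 windows of this length, and the Myh2 window held no match. A match is a run of letters and was not tested as a site.

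Other fibre genes called in every leave-one-out fit were lower too. Hspb6, a small heat shock protein abundant in muscle, read 12.22, 12.09 and 11.95 in BL10 and 11.34, 10.37 and 10.38 in mdx, and fell by 1.39 ± 0.22 (adjusted p 0.00264). Ankrd23, whose protein binds titin, fell by 1.61 and Asb10, a member of a family of ubiquitin ligase adaptors, by 1.49. Eef1a2, the translation elongation factor of mature muscle and neurons, read 12.62, 12.47 and 12.39 against 11.72, 11.27 and 10.40 and fell by 1.37. For all 4 genes mdx replicate 1 was the nearest to BL10. Of 17 tested genes of the heat shock list, Hspb6 was the 1 called, and the list's median was -0.33. Hspa1l, a heat shock gene outside the list that was picked after its values were seen, fell by 1.64 (adjusted p 0.0168). Ddit4l, an inhibitor of mTORC1 signalling, fell by 2.13 ± 0.38 (adjusted p 0.00563), with mdx replicate 1 at 10.13 close under the BL10 arrays at 10.92, 10.59 and 10.67, and replicates 2 and 3 at 7.63 and 8.03.

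Among enzymes and transporters, Neu2, a cytosolic sialidase, read 7.34, 7.26 and 6.77 in BL10 and 5.25, 4.87 and 5.16 in mdx. Its mdx arrays lay close together, and the fall was 2.03 ± 0.27 (adjusted p 0.000544 with 24 arrays and 0.0205 with the 6 arrays). Slc16a6, of the monocarboxylate transporter family, fell by 2.15 ± 0.36 with mdx at 7.09, 5.51 and 5.84 against BL10 at 8.44, 8.27 and 8.18. Phyh, the peroxisomal enzyme that starts the breakdown of phytanic acid, read 9.32, 9.24 and 9.21 against 8.19, 7.99 and 8.08. This was an even difference, -1.17 ± 0.20, and no leave-one-out value lay outside -1.22 to -1.12. Adk, which phosphorylates adenosine, fell by 1.04 with the mdx arrays at 8.63, 8.52 and 8.67. P2ry2, a receptor for extracellular ATP and UTP, read 6.95, 7.06 and 6.91 against 5.56, 5.07 and 5.26 and fell by 1.68 ± 0.24 (adjusted p 0.00067).

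A further 7 genes lower in every leave-one-out fit fell by 1.19 to 1.98. They were Trim7, a ubiquitin ligase that binds glycogenin, Dach1, a transcriptional regulator, Vamp5, a vesicle protein of muscle, Rftn1, a protein of lipid rafts, and Atxn7l1, Banp and Shisa4. For Trim7 the arrays read 9.06, 8.63 and 8.48 in BL10 and 7.35, 6.15 and 6.75 in mdx. For Atxn7l1 the call came from 1 of its 4 probe sets, and the others differed by -0.06, 0.12 and 0.15 without a call.

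Few genes of the respiratory chain and glycolysis lists were called. Cox7a1, the muscle form of a cytochrome c oxidase subunit, read 11.77, 11.87 and 11.77 in BL10 and 11.19, 10.93 and 10.37 in mdx, and fell by 0.97 ± 0.17 (adjusted p 0.00591). Cox6a2, another muscle form of this enzyme, fell by 0.56. They were the 2 called genes among 30 of the respiratory chain, whose median was -0.12. Of 18 glycolysis and glycogen genes, 1 was called, Phkg1, the catalytic subunit of muscle phosphorylase kinase (-1.33). Further called genes outside these lists were picked after their values were seen. Lower were Ndufc1, a subunit of complex I (-0.61), Me3, the mitochondrial malic enzyme (-1.33), and Bpgm, which makes bisphosphoglycerate (-0.94). Lower too were Coa5, Uqcc1, Mrps15, Oma1 and Mief2 of mitochondria (-1.12 to -0.59). Higher were Acot9 and Dhtkd1, also of mitochondria (0.73 and 1.04). Phka2, the alpha subunit of the liver form of phosphorylase kinase, rose by 1.11 ± 0.20. It read 8.03, 7.94 and 8.20 in BL10 and 9.09, 8.98 and 9.43 in mdx. Its dimmer probe sets differed by 0.04 and 0.70 without a call.

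Fatty acid oxidation genes had no calls by limma among 26, with 0 at an unadjusted p under 0.05, and their 3 mdx arrays disagreed. In mdx replicate 3, 25 of the 26 genes lay below all BL10 arrays, while in replicates 1 and 2 16 genes each lay above them. Of all 15000 genes, 5932 lay below in replicate 3, and 5997 and 5062 above in replicates 1 and 2. Fabp3, the muscle fatty acid binding protein, read 13.36, 13.29 and 13.27 in BL10 and 13.43, 13.09 and 11.35 in mdx. The list's median of -0.14 became 0.21 without mdx replicate 3.

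Most endothelial genes read lower in all 3 mdx arrays, though few passed the test. Of 24 tested endothelial genes (25 listed), 3 were called, all lower, and for 16 the mdx arrays all lay under the BL10 arrays, against 11.6% of all genes. Below the lowest BL10 array lay 20, 19 and 21 of the 24 genes in mdx replicates 1, 2 and 3, where the shares of all genes were 27.7%, 40.5% and 39.5%. The list's median was -0.62, and it ran from -0.77 to -0.57 without single arrays.

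Apln, the secreted ligand apelin, read 9.47, 9.75 and 9.55 in BL10 and 7.56, 5.81 and 8.34 in mdx, and fell by 2.35 ± 0.54 (adjusted p 0.0287). Its receptor gene Aplnr read 11.61, 11.51 and 11.39 against 10.13, 7.58 and 10.25 and was not called (-2.18, adjusted p 0.0806). Replicate 2 lay lowest for both. The transcription factor Sox18 fell by 1.55 ± 0.35, and Cdh5, the cadherin of endothelial junctions, by 1.29 ± 0.29, with BL10 at 11.12, 10.96 and 10.96 and mdx at 9.66, 9.35 and 10.15. The calls of Apln, Sox18 and Cdh5 were kept in 2, 1 and 2 of the 6 leave-one-out fits. Their differences ran from -2.90 to -1.64, from -1.80 to -1.35 and from -1.51 to -1.11 in these fits, and the highest adjusted p-values, without mdx replicate 2, were 0.191, 0.152 and 0.156. The defining surface gene Pecam1 read 9.52, 9.38 and 9.44 against 8.42, 8.19 and 8.81 without a call. In the other direction, Lyve1, of lymphatic vessels and of some macrophages, read 7.72, 7.81 and 8.01 against 8.64, 9.30 and 8.71, also without a call (adjusted p 0.0842).

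Outside that list, 6 called genes known from endothelial cells were picked out after their values were seen: Sox7, Cd93, Plxnd1, Rasip1, Arap3 and Gimap4. All were lower in mdx, by 1.26 to 1.78. Cd93, a surface glycoprotein, read 11.12, 11.02 and 10.93 in BL10 and 9.38, 9.003 and 9.52 in mdx. All 5 probe sets of this gene went the same way. They are given as values and add nothing independent to the list.

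**Figure D4:**
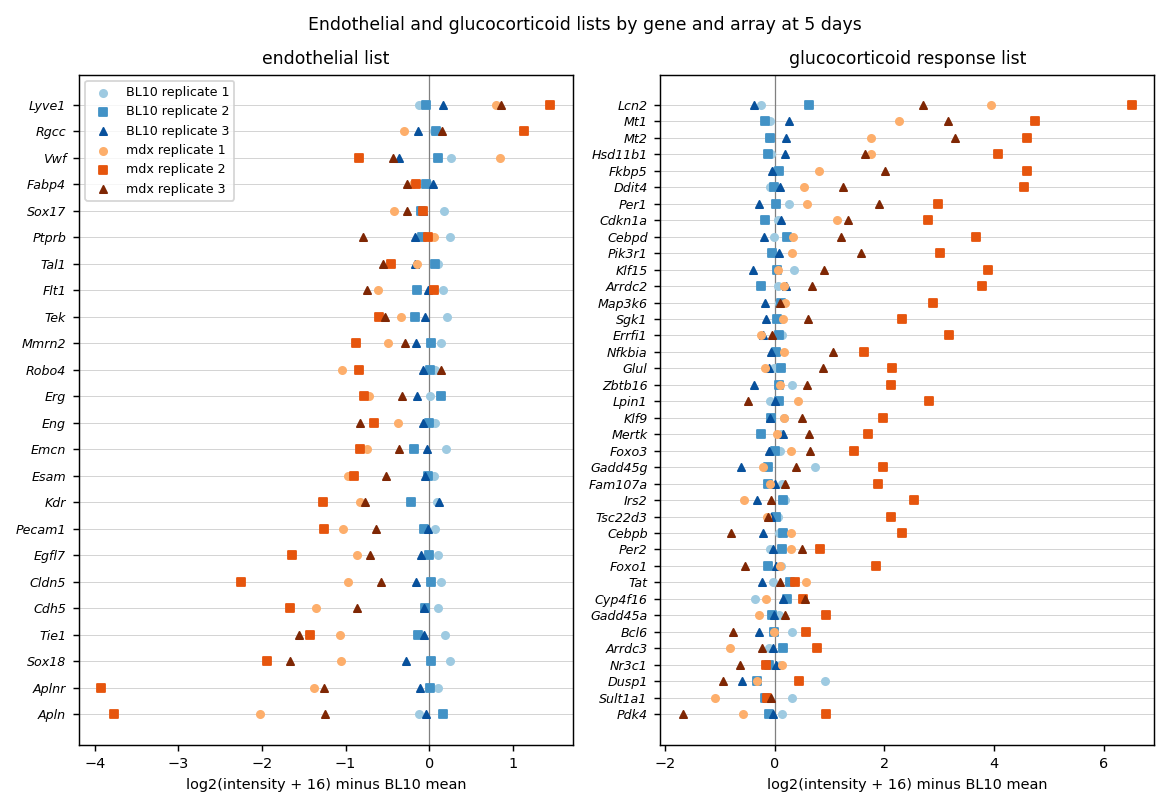
Level of each tested gene in each array minus the mean of the 3 BL10 arrays (log2, horizontal axes, which differ in range between panels), with 24 endothelial genes at left and 38 glucocorticoid response genes at right. Symbols are as labelled, blue for BL10 and orange to brown for mdx. At left the 3 mdx arrays mostly lie together on the low side, and at right mdx replicate 2 lies far above the other mdx arrays for most genes.

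Supporting cells of the interstitium showed a few large differences. Col15a1, a collagen of the basement membrane zone of fibres and capillaries, read 10.77, 10.62 and 10.94 in BL10 and 8.89, 8.23 and 8.49 in mdx. It fell by 2.24 ± 0.37 (adjusted p 0.00324), 4.73-fold, and was called with the 6 arrays alone. Thy1, a surface protein of fibroblast-like cells, read 8.29, 8.20 and 8.23 against 7.29, 6.87 and 6.43 and fell by 1.37 ± 0.19 (adjusted p 0.000638). With Pi16, a gene of adventitial fibroblasts (-1.77), they were the 3 called of 19 tested fibro-adipogenic progenitor genes. Pi16 lost its call without mdx replicate 2 (adjusted p 0.127). Pdgfra, the receptor that defines these progenitors, read 9.76, 9.79 and 9.80 against 9.99, 10.99 and 10.76 and was not called, and the list's median was -0.18.

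Rgs5, a G protein regulator that marks pericytes, read 12.03, 12.02 and 12.02 in BL10 and 11.16, 10.90 and 10.49 in mdx, and fell by 1.17 ± 0.19 (adjusted p 0.00264), with all 4 probe sets lower. It was the 1 gene called of 16 for pericytes and smooth muscle, whose median was -0.30. Igfbp7, a secreted protein of vessel walls, read 12.05, 11.81 and 12.03 against 10.70, 10.53 and 10.51 and fell by 1.38 ± 0.22 (adjusted p 0.00264, and 0.0205 with the 6 arrays alone). Its arrays were tight within each strain, though 1 of its 3 probe sets did not go the same way. Cd59a, which protects cell surfaces from the complement attack complex, fell by 1.64 ± 0.23 with BL10 at 9.70, 9.48 and 9.65 and mdx at 8.22, 8.31 and 7.39. Of 31 extracellular matrix genes and 16 tendon genes none was called in the limma fit to 24 arrays. In these lists 7 and 0 had an unadjusted p under 0.05. Col1a1, a chain of type I collagen, read 13.52, 13.52 and 13.60 in BL10 and 12.73, 12.66 and 12.75 in mdx. It was called with the 6 arrays alone (-0.77, adjusted p 0.0205) and not with 24 arrays (adjusted p 0.271). Keratocan (Kera), a tendon proteoglycan, read 8.25 and 8.17 in mdx replicates 1 and 2 but 10.95 in replicate 3, with BL10 at 10.26, 10.08 and 10.33.

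Lcn2, which encodes the iron-siderophore carrier lipocalin 2, read 4.46, 5.33 and 4.32 in BL10 and 8.64, 11.22 and 7.41 in mdx. The mdx arrays lay far apart, with replicate 2 highest, and all lay above BL10. The BL10 levels lie close to the lowest level possible, so no fold is given. The rise of 4.39 ± 0.78 (adjusted p 0.00579) kept its call without any 1 array, at 3.32 to 5.23. Mt1 and Mt2, which bind zinc and copper, rose by 3.39 ± 0.65 and 3.21 ± 0.75. Mt1 read 8.97, 8.88 and 9.32 in BL10 and 11.31, 13.79 and 12.21 in mdx. A dimmer Mt1 probe set, 1451612_at, differed by 1.56 without a call, with mdx at 5.76, 8.58 and 5.38. Without mdx replicate 2, Mt1 and Mt2 differed by 2.71 and 2.52 and were not called (adjusted p 0.0801 and 0.203). They were called in 3 and 1 of the 6 leave-one-out fits, also losing calls without BL10 arrays.

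The start regions of both metallothionein genes are shown because the genes are neighbours and rose together. Each run is the 250 bases before the RefSeq start in GRCm38.p6, plus strand. Capitals mark matches on either strand to TGCNCNC, a loose pattern for the metal response element. In Mt1 they also mark the longer palindromic glucocorticoid response element.
Mt1, chr8:94178839-94179088: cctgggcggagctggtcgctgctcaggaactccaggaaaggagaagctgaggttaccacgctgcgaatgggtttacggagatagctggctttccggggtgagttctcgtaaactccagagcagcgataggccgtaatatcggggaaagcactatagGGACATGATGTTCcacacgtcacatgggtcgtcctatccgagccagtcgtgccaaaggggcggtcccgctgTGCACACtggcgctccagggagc
Mt2, chr8:94172368-94172617: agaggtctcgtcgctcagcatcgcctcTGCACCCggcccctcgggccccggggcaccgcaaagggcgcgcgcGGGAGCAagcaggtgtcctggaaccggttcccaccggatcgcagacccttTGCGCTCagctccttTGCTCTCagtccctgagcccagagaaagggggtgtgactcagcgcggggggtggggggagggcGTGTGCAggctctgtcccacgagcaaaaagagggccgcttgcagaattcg
The glucocorticoid motif began 94 bases before the start of Mt1, and 0.387% of 32851 windows held that motif on either strand. The loose metal pattern was found 5 times before Mt2 and in 1 place before Mt1, and 44.4% of all windows held it. Letters after the RefSeq start were not searched, and no match was tested as a site, so these counts do not compare the metal response elements of the genes. The Lcn2 window held no match to any of the 3 motifs searched, which says only that these letters are not in that window.

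Hsd11b1, the enzyme that regenerates active glucocorticoid inside cells, read 5.89, 5.85 and 6.16 in BL10 and 7.72, 10.05 and 7.62 in mdx. Replicate 2 was again highest, but replicates 1 and 3 also stood clear of BL10, and the rise was 2.50 ± 0.45 (5.64-fold, adjusted p 0.00591). With Lcn2, Mt1 and Mt2 it made 4 called of 38 tested glucocorticoid response genes. The list's median was 0.90. Its mean level was 8.11, 8.02 and 7.92 in BL10 and 8.33, 10.36 and 8.60 in mdx. Above all BL10 arrays lay 35 of the 38 genes in mdx replicate 2, 23 in replicate 3 and 19 in replicate 1, where 5062, 5041 and 5997 of all 15000 genes did. Without replicate 2 the list's median was 0.33.

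Fkbp5, a chaperone partner of the glucocorticoid receptor, shows the pattern of the uncalled members: it read 6.92, 7.02 and 6.89 in BL10 and 7.76, 11.55 and 8.96 in mdx (adjusted p 0.0865). The receptor gene itself, Nr3c1, differed by -0.22. Klf15, Ddit4 and Cebpd, further targets of the receptor, read 10.97, 11.32 and 11.90 in mdx replicate 2 and at most 7.97, 8.03 and 9.44 in the other mdx arrays, and none was called.

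Muscle atrophy genes were highest in mdx replicate 2. None of 24 tested genes of ubiquitin ligases and autophagy was called by limma, 10 had an unadjusted p under 0.05, and their median of 0.61 was 0.16 without mdx replicate 2. For 9 of them all 3 mdx arrays lay above BL10, against 11.6% of all genes, and 16, 21 and 13 lay above all BL10 arrays in replicates 1, 2 and 3, as did 5997, 5062 and 5041 of all 15000 genes. Fbxo32, the ubiquitin ligase atrogin-1, read 6.92, 6.60 and 6.92 in BL10 and 7.55, 11.51 and 7.41 in mdx. Trim63, the ligase MuRF1, read 10.13, 12.68 and 9.38 in mdx against 9.87, 10.12 and 9.83 in BL10. Replicate 2 alone held these high levels. Ddit4, Foxo1 and Foxo3 stand in both this list and the glucocorticoid list.

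**Figure D5:**
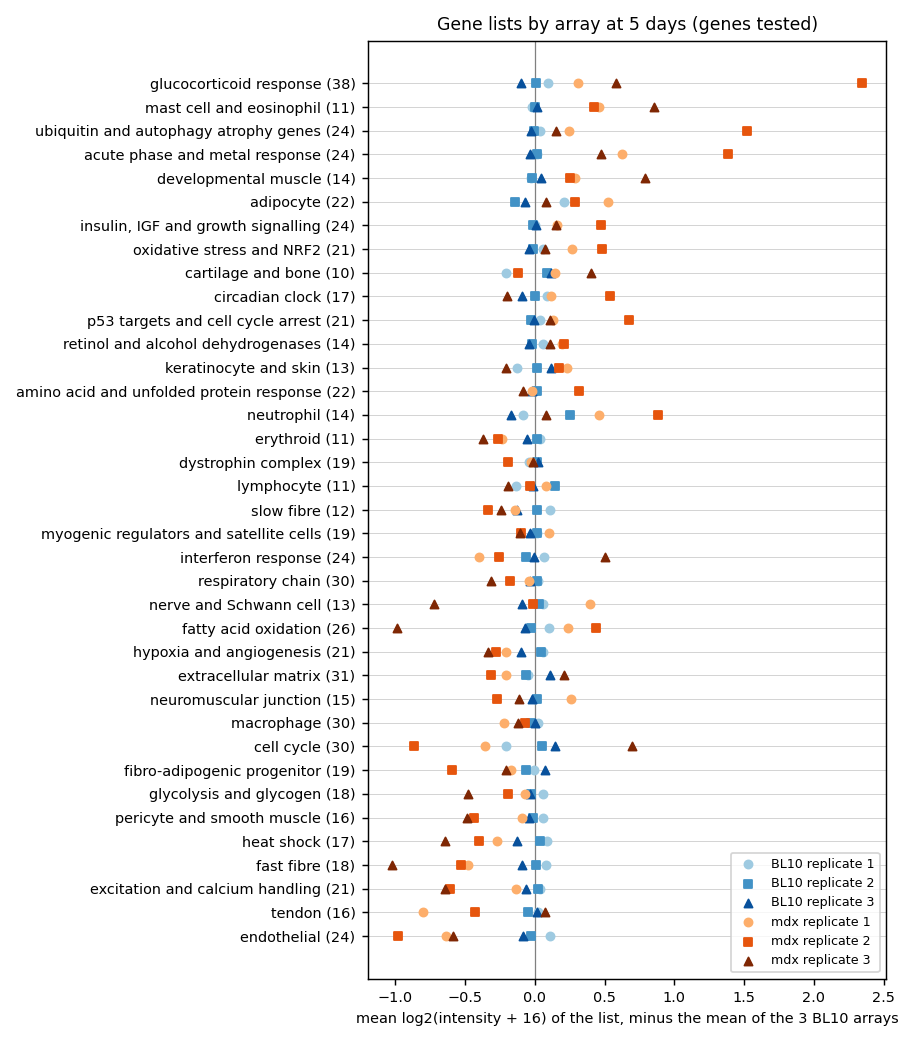
Mean level of the tested genes of each of 37 lists in each array, minus the mean of the 3 BL10 arrays (log2, horizontal axis), with the number of tested genes in brackets. Blue symbols are BL10 and orange to brown symbols mdx. The 3 mdx arrays lie together below BL10 for the endothelial list and above it for the mast cell list, whereas 1 mdx array stands apart from the other two for the glucocorticoid, atrophy, cell cycle and fatty acid oxidation lists.

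Of the genes for mast cells, Hdc and Tpsab1 were called higher. Hdc, which makes histamine, read 4.30, 4.74 and 4.87 in BL10 and 5.63, 6.77 and 7.90 in mdx, and rose by 2.13 ± 0.37 (adjusted p 0.00526). The BL10 levels lie just above the lowest level possible. The tryptase gene Tpsab1 read 5.15, 5.14 and 5.15 against 5.89, 5.98 and 6.04 and rose by 0.83 (adjusted p 0.0472), a call kept in 1 of the 6 leave-one-out fits. These were the 2 called of 11 tested genes for mast cells and eosinophils (17 listed). The protease genes Cpa3 and Cma1 read 9.03, 9.26 and 10.84 and 10.06, 9.82 and 10.61 in mdx, above every BL10 array (8.04 to 8.52 and 8.98 to 9.23), without a call. For 6 of the 11 genes mdx lay entirely above BL10, against 11.6% of all genes, and the median of 0.77 ran from 0.65 to 0.82 without single arrays. Kit, the receptor on which mast cells depend, differed by -0.50 and Ms4a2, a subunit of their IgE receptor, by -0.30, both without a call. Dim probe sets needed only 3 arrays above the filter, so a dim gene can enter this list's counts through arrays where it is high. Without a filter on dim probe sets the median was 0.32.

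Other immune cell lists had few calls. Of 30 macrophage genes 1 was called, lysozyme (Lyz2), which read 9.35, 9.42 and 9.62 in BL10 and 8.04, 8.86 and 8.12 in mdx and fell by 1.12. Csf1r, the receptor that macrophages need, read 10.09, 9.95 and 9.92 against 9.29, 8.84 and 8.99 without a call, and the list's median was -0.16. Marco and Mgl2, macrophage receptors outside the list that were picked after their values were seen, fell by 1.05 and 0.87 (adjusted p 0.0296 and 0.0388). Of 14 neutrophil genes Lcn2 alone was called. The neutrophil calgranulin S100a8 read 5.92, 6.83 and 5.91 against 8.77, 11.34 and 6.54, so mdx replicate 3 lay within the BL10 range. Lymphocyte and erythroid lists had no calls by limma among 11 genes each, and 0 and 4 had an unadjusted p under 0.05.

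Cell cycle genes and interferon targets differed among the mdx arrays, which lay on both sides of BL10. Of 30 cell cycle genes none was called by limma and 1 had an unadjusted p under 0.05. Replicate 3 lay above all BL10 arrays for 28 of them, whereas replicates 1 and 2 lay below for 20 and 25. The mitotic kinase gene Cdk1 read 8.96, 9.16 and 9.39 in BL10 and 8.63, 8.40 and 10.41 in mdx. The list's median was -0.17, with 0.21 when mdx replicate 2 was left out and -0.70 without replicate 3. Of 24 interferon targets none was called by limma, with 1 at an unadjusted p under 0.05, replicate 3 above all BL10 arrays for 18, and replicates 1 and 2 below for 18 and 16. Of all genes, 33.6% lay above all BL10 arrays in replicate 3, and 27.7% and 40.5% lay below them in replicates 1 and 2. Bst2, which holds budding virus at the cell surface, read 6.91, 7.02 and 7.12 in BL10 and 6.07, 5.79 and 8.44 in mdx.

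Further genes rose in all 3 mdx arrays and in every leave-one-out fit. Egfbp2, of the glandular kallikrein proteases, read 5.91, 6.30 and 6.27 in BL10 and 8.67, 9.58 and 7.85 in mdx, and rose by 2.54 ± 0.27 (adjusted p 8.74e-05). Kallikrein genes are near copies of each other, so the probe set may read relatives of Egfbp2 as well. Adh1, an alcohol and retinol dehydrogenase, read 8.04, 7.46 and 7.27 against 8.97, 10.34 and 10.25 and rose by 2.26 ± 0.31 (4.79-fold, adjusted p 0.000638). It was the 1 called of 14 retinol and alcohol dehydrogenase genes.

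Ahcy, which removes the product of cellular methylation reactions, read 9.06, 9.13 and 8.75 in BL10 and 10.40, 11.64 and 10.26 in mdx, and rose by 1.78 ± 0.25 (adjusted p 0.000638). Tgfbr3, the co-receptor betaglycan for TGF-beta, read 9.60, 9.50 and 9.64 against 10.37, 11.31 and 10.66 and rose by 1.20 ± 0.21. In both genes replicate 2 stood highest and all mdx arrays stood clear of BL10. Arih2, a ubiquitin ligase, rose by 0.95 ± 0.16 with all 5 probe sets higher. Cyp4f15, a fatty acid hydroxylase of the cytochrome P450 family, rose by 2.47 ± 0.43, but BL10 was uneven, at 6.57, 4.19 and the lowest level of 4, and mdx read 7.10, 8.02 and 7.05.

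Called genes of stress and growth pathways were mostly single members of their lists. Asns, which makes asparagine and is a target of the amino acid response, read 7.07, 7.07 and 7.54 in BL10 and 8.63, 8.86 and 10.18 in mdx. It rose by 2.00 ± 0.43 (adjusted p 0.0205, kept in 2 of 6 leave-one-out fits) and was the 1 called of 22 amino acid and unfolded protein response genes. Of the 22, 9 (40.9%) had an unadjusted limma p under 0.05, against 14.3% of all genes, and the list's median difference was 0.045. Mgst1, a membrane-bound glutathione transferase, read 8.62, 8.17 and 8.52 against 10.32, 10.66 and 10.05. It rose by 1.91 ± 0.42, the 1 call among 21 oxidative stress genes, of which 4 had an unadjusted limma p under 0.05. Mgst1 was also called with the 6 arrays alone (adjusted p 0.0315). Igfbp2, a carrier of insulin-like growth factors, rose by 1.31 ± 0.24, with mdx at 8.31, 8.002 and 9.36 against 7.09, 7.16 and 7.50, and was called in 5 of the 6 leave-one-out fits, the exception being that without BL10 replicate 1 (adjusted p 0.0527). The host genes of small nucleolar RNAs Snhg12, Snhg16 and Zfas1, chosen after their values were seen, rose by 1.03, 1.19 and 1.28.

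Some differences lay at the sex chromosomes. Erdr1, of the pseudoautosomal region, read 10.55, 9.68 and 10.01 in BL10 and 6.36, 6.10 and 6.32 in mdx, and fell by 3.82 ± 0.58 (14.1-fold, adjusted p 0.00151, and 0.00717 with the 6 arrays alone). The mdx arrays lay close together. A second probe set, 1447790_at, differed by -0.07. Sry, the testis-determining gene of the Y chromosome, was at the lowest level possible in all 3 BL10 arrays, including the 2 male ones, and read 5.26, 5.28 and 5.22 in mdx. It rose by 1.25 ± 0.25 (adjusted p 0.0137), at levels too dim for a fold, and kept its call in 2 of the 6 leave-one-out fits. The difference stayed at 1.24 to 1.27 in these fits, with adjusted p-values up to 0.0639.

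The differences of 5 days were mostly not called at the later ages. Of the 39 genes called in every leave-one-out fit, 19 differed in the same direction at 2 weeks, 29 at 3 weeks and 13 at 6 weeks, and 0 were called in the same direction at any of these ages, while 4, 7 and 0 had an unadjusted p under 0.05 in that direction. Over all 15000 genes the same direction held for 7957, 8222 and 7192, and 0, 690 and 9 were called in it. Of the 216, the same direction held for 137, 151 and 73, 0, 11 and 0 were called, and 25, 40 and 1 had an unadjusted p under 0.05 in that direction. By the Dmd probe sets, 1 array labelled mdx at 2 weeks, 1 labelled BL10 at 3 weeks and the 3 labelled mdx at 6 weeks read as the other strain, so these later values rest on arrays that go against their labels. Aqp4 differed by 0.27 at 2 weeks, 0.30 at 3 weeks and 0.75 at 6 weeks, and Col15a1 by -0.43, 0.40 and 0.27. Erdr1 kept its direction at 2 and 3 weeks, at -2.21 and -1.31, and differed by 0.08 at 6 weeks.

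The change of the strain difference from 5 days to 2 weeks was called for 28 of 15000 genes by an interaction contrast of the same fit, and 17 of these were among the 39. Phyh went from -1.17 to 0.76, a change of 1.93 (adjusted p 0.00592). Rpl3l went from -2.09 to 0.18 and Egfbp2 from 2.54 to -0.06, both with an adjusted p of 0.00592. The 5-day arrays are shared by this contrast and by the calls at 5 days, so the overlap of the lists is not independent of them.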

How the data were processed

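RNA of 24 quadriceps samples was measured on 1 array each. The deposited table holds intensity per probe set on a linear scale, summarised by the authors with PLIER, per the submitters' processing notes, which give neither its version nor its settings. Some deposited values lie below 0.

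Values were quantile normalized over the 24 arrays, set to 0 where negative, and given as log2 after adding 16. Of 45101 probe sets, 64 are array controls. Of the rest, 34945 carry 1 symbol in the platform annotation, 932 several and 9160 none. For each of 18193 symbols the probe set with the highest mean stood for the gene, and 15000 genes passed a filter (above the 40th percentile of the array on at least 3 arrays). A limma model (version 3.58.1, R 4.3.3) with 8 group means, an intensity trend and no block was fitted to all 24 arrays (16 residual and 5.15 prior degrees of freedom), with two-sided moderated tests and Benjamini-Hochberg adjustment over all 15000 genes. The threshold for a call was 0.05. An exact permutation test of 3 arrays against 3 cannot give a p below 0.1. Precision is limited by the number of arrays, with a median standard error of 0.225. The fit was tested on simulated data that gave each gene the same spread in all arrays. Since the real mdx arrays of 5 days varied more than the BL10 arrays, that test does not cover their unequal spread.

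The genes and 37 lists (789 symbol entries, 695 tested) were chosen with earlier results of these data known. Genes were named by rule: the dystrophin complex, the 15 highest and 15 lowest differences among called genes without overlap, the 10 highest and 10 lowest among genes called in every leave-one-out fit, and, per list, at most 4 called members, or its extremes. Other list members and called genes in the text were picked after their values were seen. Promoter letters are RefSeq's (GRCm38.p6). Alternatives were no normalization, median centring, 1 or 64 in place of 16, a filter at the 60th percentile or none, all probe sets or their mean, no trend, array weights, the 6 arrays alone, a replicate block, leaving out arrays, and other thresholds. Plots used matplotlib 3.10.9 (Python 3.11.15).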

Additional observations from a re-analysis of the deposited data

Results flagged for a closer look

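Among the called genes, 23 differed between ages: an interaction contrast of the limma fit called a change in the mdx minus BL10 difference between 5 days and 2 weeks. Values in brackets are the difference at 2 weeks minus that at 5 days on the log2 scale, each at an adjusted p under 0.05. The 5-day arrays enter both this contrast and the calls that chose these genes. A change opposite in sign to the 5-day difference is therefore favoured in advance. For genes lower in mdx at 5 days the change was upward. Among genes of the fibre and its membrane these were Aqp4 (2.69), Rpl3l (2.27), Myh4 (2.12), Ankrd23 (2.12), Abra (2.10), Hspb6 (1.79), Scn4b (1.77), Eef1a2 (1.68) and Asb10 (1.53). Among enzymes and transporters they were Phyh (1.93), Slc38a3 (1.84), Bpgm (1.42) and Adk (1.23). The others were the heat shock gene Hspa1l (2.62), the pericyte gene Rgs5 (1.39) and Atxn7l1 (1.87), Banp (1.68) and Rftn1 (1.20). For genes higher in mdx at 5 days the change was downward, in Cyp4f15 (-3.13), Egfbp2 (-2.60), Sry (-2.34), Ahcy (-1.97) and Igfbp2 (-1.62). At 2 weeks, 1 array labelled mdx read as BL10 by its Dmd probe sets, and a BL10 array at 3 weeks read as mdx. An alternative added after these data were seen left out both arrays, and then 12 of the 23 changes were called and 11 were not. Those 11 kept their direction and much of their size: Abra (2.03), Asb10 (1.47), Atxn7l1 (1.64), Bpgm (1.35), Cyp4f15 (-3.12), Eef1a2 (1.65), Hspa1l (2.42), Igfbp2 (-1.55), Rftn1 (1.17), Scn4b (1.67) and Slc38a3 (1.66), at adjusted p-values of 0.0646 to 0.125. No group of 5 days has enough arrays for a test of single outlying samples.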

How the results depend on the processing

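The count of 216 called genes was 391 with all 32990 probe sets tested, 390 with array weights, 61 at an adjusted p of 0.01 and 515 at 0.1. It was 12 with the 6 arrays fitted alone, of which 9 were among the 216, and 1 in that fit with a replicate block. Without single arrays it ran from 46 to 726. Under the other settings run it stayed within 1.5 times, from 152 without 5 arrays of other ages that go against their labels to 293 with a replicate block in the fit to 24 arrays (215 of the 216 among them). Deviations of same-numbered arrays correlated at 0.234, 0.076 and 0.195, and each array correlated best with its own number, a hint from the data and not from the design, so the arrays were not treated as paired. Of the 39 genes called in every leave-one-out fit, 34 lost the call with the 6 arrays alone, 38 in that fit with the block, 5 when a gene's probe sets were averaged and 1 with an added constant of 1. Over all named genes and settings, 1438 values lost their call, 45 gained one and none of those called changed sign. The cause of these changes was not tested. List medians moved by more than the spread between replicates in 25 cases and by less in 604. With 3 arrays a strain, a difference that was not called may still be present.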
